A study of Mus musculus with 6 samples.

Results

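Circadian clock genes were examined in AML12 cells, a mouse hepatocyte line grown in culture, and 10 of them were followed: *Per1*, *Per2*, *Per3*, *Cry1*, *Cry2*, *Arntl*, *Nr1d1*, *Nr1d2*, *Dbp* and *Bhlhe40*. They were taken by gene symbol from the deposited tables, which list 25330 genes. All 10 were listed, and 9 of them were among the 14020 genes with enough reads to be tested. *Dbp* was not. The Control group (n = 3) was wild-type cells kept at 21% O2 and 5% CO2 in medium with 10% fetal bovine serum, an insulin, transferrin and selenium supplement and 40 ng/mL dexamethasone, a synthetic glucocorticoid. The H6R2 group (n = 3) was the same wild-type line, moved to medium without serum and without glucose, held for 6 h at 1% O2, 5% CO2 and 37°C, and then reoxygenated for 2 h. Oxygen and medium changed together, so their parts in any difference cannot be told apart, and whether dexamethasone was in the replacement medium is not given in the sources used here. The labels do not say that the 3 libraries of a group came from separate cultures, so p-values measure the spread between these libraries, which may be technical. Every group was taken at a single time, so a shift in the phase of a rhythm and a change in its mean level cannot be told apart. Whether both groups were taken at the same time is not given in the sources used here. Nor is the medium of the 2 h of reoxygenation.

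The circadian clock of mammalian cells is a transcriptional feedback loop with a period of about a day. ARNTL (also called BMAL1) and CLOCK bind together to E-box sequences and switch on the *Per* and *Cry* genes, whose proteins return to the nucleus and shut their own activators down. In a second arm of the loop, the nuclear receptors NR1D1 and NR1D2 (REV-ERB) repress *Arntl* while ROR receptors activate it, and DBP and NFIL3 compete at D-box sequences to pass the rhythm on to liver metabolism. In cultured cells serum, glucocorticoids, cAMP and oxygen are all known to act on the clock.

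Of the 9 clock genes tested, 5 were higher in H6R2 than in Control (*Cry1*, *Nr1d2*, *Arntl*, *Bhlhe40* and *Per1*) and 1 was lower (*Cry2*) at an adjusted p under 0.05. *Per2*, *Per3* and *Nr1d1* did not pass. *Cry1* had the largest difference, at 2.71-fold, and alone of the 9 was also past a fold change of 2. These counts stood against a broad response of the whole transcriptome. The 6 of 9 (66.7%) compare with 62.8% of all tested genes at an adjusted p under 0.05, of which 31.0 percentage points were higher and 31.8 were lower. Past both thresholds were 1 of the 9 and 8.52% of all tested genes (4.25% higher and 4.27% lower). On TMM-normalised counts the groups did not overlap for 7 of the 9, of which 6 were higher and 1 was lower. The share of all tested genes was 65.9% (32.5% higher and 33.5% lower). On RPKM, which scales by library total and gene length, *Per2* overlapped and *Nr1d1* did not. The number of clock genes that differed was thus close to the background, while the median log2 fold change of the 9 was 0.41 and that of all tested genes was -0.01.

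**Figure D1:**
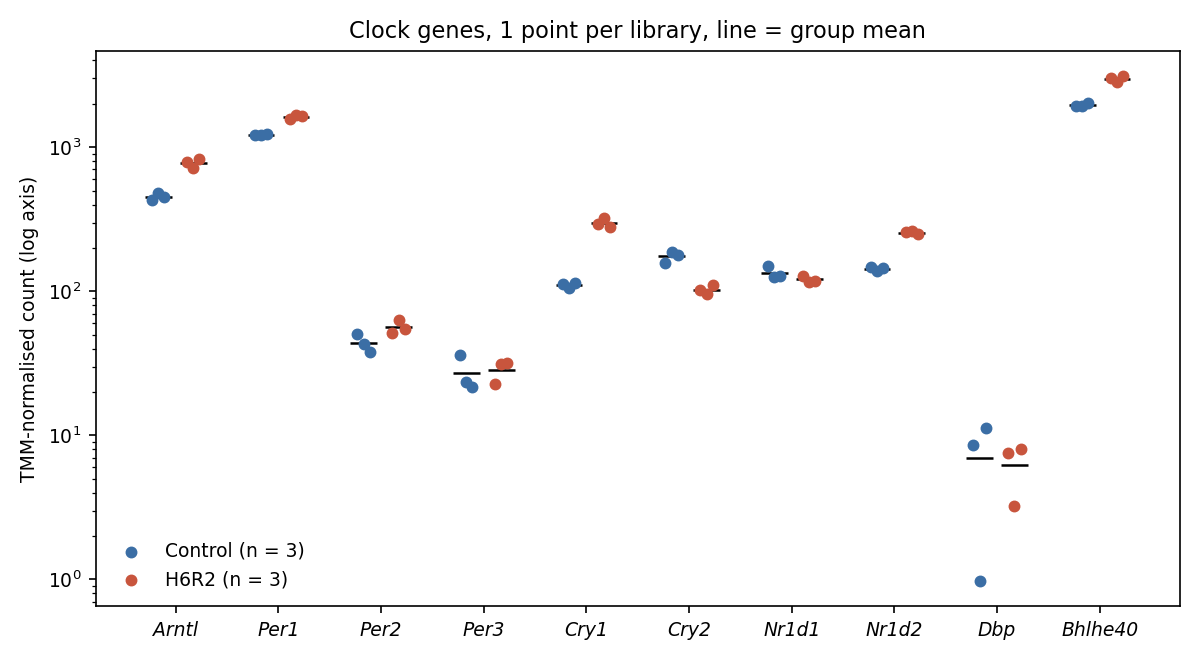
TMM-normalised counts of the 10 clock genes (log axis) in each of the 3 Control (blue) and 3 H6R2 (red) libraries, with a line at each group's mean. The H6R2 points lie wholly above the Control points for *Arntl*, *Per1*, *Per2*, *Cry1*, *Nr1d2* and *Bhlhe40*, and wholly below them for *Cry2*. The ranges of the groups overlap for *Per3*, *Nr1d1* and *Dbp*.

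Total counts ranged from 21026650 to 21854790 in Control and from 20438746 to 21742441 in H6R2. Control replicate 1 stood apart: 59 genes had at least 10 counts there and at most 2 in every other library, against 0 to 2 such genes in each of the others. Without it, 6 of the 9 clock genes still had an adjusted p under 0.05 and *Cry1* was still the 1 past both thresholds. The labelled hepatocyte type was checked on 7 markers, all of which were detected. *Hnf4a*, a liver transcription factor, had 2912 ± 104 TMM-normalised counts in Control and 2187 ± 19.3 in H6R2 (SD, n = 3 each). *Alb*, the main hepatocyte product, had 513, 129 and 197 in the Control libraries and 33.4 to 46.3 in the H6R2 libraries. The raw counts of the 7 markers, mostly of *Krt8* and *Krt18*, summed to 86252 to 94689 in Control and 125018 to 133119 in H6R2. Only *Krt8* and *Krt18* rose, each with a log2 fold change of 0.66. All the other markers of the 7 fell: *Ttr* by -3.07, *Alb* by -2.85, *Afp* by -2.03, *Apoa1* by -0.99 and *Hnf4a* by -0.41. Each of the 7 had an adjusted p under 0.05 (edgeR). The counts of the 4 cholangiocyte markers listed of 5 (*Krt19*, *Krt7*, *Sox9* and *Spp1*) summed to 31986 to 36476 in Control and 52574 to 56997 in H6R2, mostly from *Krt19* and *Krt7*, while *Spp1* fell from 4326 ± 210 to 2912 ± 111 TMM-normalised counts (log2 -0.57, adjusted p = 2.63e-13, edgeR). Raw counts of 5 macrophage markers summed to 65 to 77 in Control and 175 to 220 in H6R2. *Adgre1* and *Clec4f* had 3 counts or fewer in every library. The rise was mostly of *Cd68*, from 19.1 ± 3.45 to 130 ± 7.73 TMM-normalised counts. *Csf1r* went from 46.8 ± 7.22 to 72.3 ± 7.16, and *Lyz2* had 5 raw counts or fewer in every library. Sums over 4 endothelial markers stayed between 3 and 10 counts, over 4 stellate cell markers between 7 and 13, and over 3 lymphocyte markers between 0 and 3. In bulk RNA fewer cells of a type and less RNA per cell cannot be told apart, and the part of these marker shifts in the values that follow was not tested.

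Of the activator arm, *Arntl* (chromosome 7, 113207465 to 113314126, plus strand, GRCm38) encodes the partner without which the loop does not run. Its TMM-normalised counts, which are read counts scaled to a common effective library size, were 428, 484 and 452 in the Control libraries and 790.5, 722 and 826 in the H6R2 libraries, in the order of their replicate numbers here and below. The lowest H6R2 library was above the highest Control library. The mean rose from 454.5 ± 28.0 to 779.5 ± 53.3 (SD, n = 3 each), a log2 fold change of 0.78 (SE 0.0667, 95% interval 0.64 to 0.91, adjusted p = 2.56e-12, edgeR quasi-likelihood test with Benjamini-Hochberg adjustment over all tested genes). Its partner *Clock* had 1096, 1066 and 1076 counts in Control and 1158, 1115 and 1172 in H6R2. These groups did not overlap either, but the log2 fold change of 0.09 did not pass (adjusted p = 0.129, edgeR). On RPKM the *Clock* groups overlapped, at 3.79 to 3.91 in Control and 3.69 to 3.93 in H6R2. Within each library the RPKM of *Arntl* was therefore set against that of *Clock*. The ratio averaged 0.768 in Control and 1.24 in H6R2, a log2 difference of 0.69, and the 3 libraries of either group did not overlap (exact permutation test, two-sided, p = 0.10, which is the smallest that 3 against 3 allows; 0.20 after adjustment over the 10 ratios compared).

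The repressor *Per1* (chromosome 11, 69095217 to 69109960, plus strand) encodes a period protein, and the gene is known to respond quickly to outside signals. Its promoter is shown because it carries both an E-box and the core of a ROR element. The stretch is chr11:69098769-69098947 (GRCm38.p6, RefSeq, plus strand), positions -180 to -2 from the first of its 2 RefSeq start sites, with the start site as 0. Capitals mark the E-box CACGTG at -166 and, at -137, TGACCT, which is the ROR core AGGTCA read on the opposite strand.
Per1: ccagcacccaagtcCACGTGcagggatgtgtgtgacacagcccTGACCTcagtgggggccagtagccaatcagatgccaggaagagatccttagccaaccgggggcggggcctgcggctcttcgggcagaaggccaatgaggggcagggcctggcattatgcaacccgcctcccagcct
Counts of *Per1* were 1221, 1212 and 1235 in the Control libraries and 1561, 1673 and 1655 in the H6R2 libraries. Both groups were tight and well apart. The mean went from 1223 ± 11.5 to 1629 ± 60.2, a 1.33-fold rise (log2 0.41, SE 0.0486, interval 0.32 to 0.51, adjusted p = 3.98e-09, edgeR). Of all tested genes, 18.7% had a log2 fold change at least as high.

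*Per2* (chromosome 1, 91415982 to 91459324, minus strand), a period gene of the core loop, was far less abundant than *Per1* per length of transcript. Its counts were 50.2, 42.9 and 37.7 in Control and 51.7, 63.6 and 55.0 in H6R2. The groups were separated only by the gap from 50.2 to 51.7, and on RPKM they overlapped. The log2 fold change of 0.38 (SE 0.197) was close to that of *Per1*, with an interval from -0.02 to 0.78 and an adjusted p of 0.0933 (edgeR), so the difference did not pass at this depth. The ratio of *Per1* to *Per2* averaged 29.4 in Control and 30.0 in H6R2, and its groups overlapped.

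*Per3* (chromosome 4, 151003652 to 151044665, minus strand), a member of the family that the core loop can do without, has a promoter with 2 copies of the D-box. It is shown because the D-box occurred in no other window searched. *Per2* and *Bhlhe40* had no window. The stretch is chr4:151044666-151044876 (GRCm38.p6, RefSeq, minus strand), positions -211 to -1, with the D-box TTATGTAA at -205 and -158 in capitals.
Per3: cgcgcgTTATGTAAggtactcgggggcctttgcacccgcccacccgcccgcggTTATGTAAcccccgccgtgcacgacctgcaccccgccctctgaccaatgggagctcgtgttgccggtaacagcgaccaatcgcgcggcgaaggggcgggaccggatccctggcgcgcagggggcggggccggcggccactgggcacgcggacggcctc
Its counts were 36.0, 23.4 and 21.7 in Control and 22.6, 31.3 and 32.0 in H6R2, with Control replicate 1 the highest of the 6. The groups overlapped, and the log2 fold change was 0.09 (SE 0.269, interval -0.46 to 0.63, adjusted p = 0.798, edgeR). Without Control replicate 1 it was 0.35 (adjusted p = 0.338, edgeR), and with libraries scaled by their totals alone it was -0.02, so no direction can be given. *Per1* held 95.5% ± 0.795 of the summed RPKM of the 3 *Per* genes in Control and 95.8% ± 0.332 in H6R2 (SD, n = 3 each), while that sum went from 11.1 ± 0.201 to 13.8 ± 0.619.

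The cryptochromes are the strongest repressors of the loop, and the 2 genes moved in opposite directions. Their promoters are shown side by side for the E-box letters they share and do not share. The stretch for *Cry1* is chr10:85185065-85185234 (GRCm38.p6, RefSeq, minus strand), positions -180 to -11, and that for *Cry2* is chr2:92434070-92434249 (minus strand), positions -180 to -1. Capitals mark the variant E-box CACGTT, read on the opposite strand as AACGTG, at -79 in *Cry1* and -166 in *Cry2*, and the E-box CACGTG at -60 in *Cry1*.
Cry1: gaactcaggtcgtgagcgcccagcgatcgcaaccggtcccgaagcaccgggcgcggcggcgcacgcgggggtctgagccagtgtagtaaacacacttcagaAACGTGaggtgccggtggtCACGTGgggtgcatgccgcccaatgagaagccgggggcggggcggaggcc
Cry2: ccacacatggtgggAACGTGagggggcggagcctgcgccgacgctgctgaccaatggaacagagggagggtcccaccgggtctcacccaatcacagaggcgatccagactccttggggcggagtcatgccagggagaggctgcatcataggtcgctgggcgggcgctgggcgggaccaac
*Cry1* (chromosome 10, 85131700 to 85185064, minus strand) had 112, 105 and 114 TMM-normalised counts in Control and 293, 325 and 281 in H6R2. The 3 H6R2 libraries lay far above the 3 Control libraries. The mean rose from 110.3 ± 4.46 to 299 ± 22.6, 2.71-fold, with a log2 fold change of 1.44 (SE 0.105, interval 1.22 to 1.65, adjusted p = 4.55e-14, edgeR). Only 1.95% of all tested genes had a log2 fold change as high. On the compressed scale of log2(RPKM + 1), on which low values shrink, it was 0.96 with limma, just under 2-fold.

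*Cry2* (chromosome 2, 92403646 to 92434043, minus strand) had 158, 187 and 180 counts in Control and 102, 96.0 and 109.9 in H6R2. All 3 H6R2 libraries were below the lowest Control library. The mean fell from 175 ± 15.1 to 103 ± 6.98, to 0.588 of the Control level (log2 -0.77, SE 0.122, interval -1.01 to -0.52, adjusted p = 1.46e-06, edgeR), and 8.52% of all tested genes had a log2 fold change as low. The ratio of *Cry1* to *Cry2* RPKM within a library does not depend on how libraries are scaled. On the log2 scale it was 0.42, 0.09 and 0.26 in the Control libraries and 2.44, 2.68 and 2.27 in the H6R2 libraries. That is a ratio of 1.19 in Control and 5.51 in H6R2, 4.61-fold apart, with no overlap (exact permutation test, p = 0.10, adjusted 0.20). *Cry1* made up 54.4% ± 2.83 of the summed RPKM of the pair in Control and 84.6% ± 1.82 in H6R2, and the sum itself went from 2.98 ± 0.146 to 4.82 ± 0.239.

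**Figure D2:**
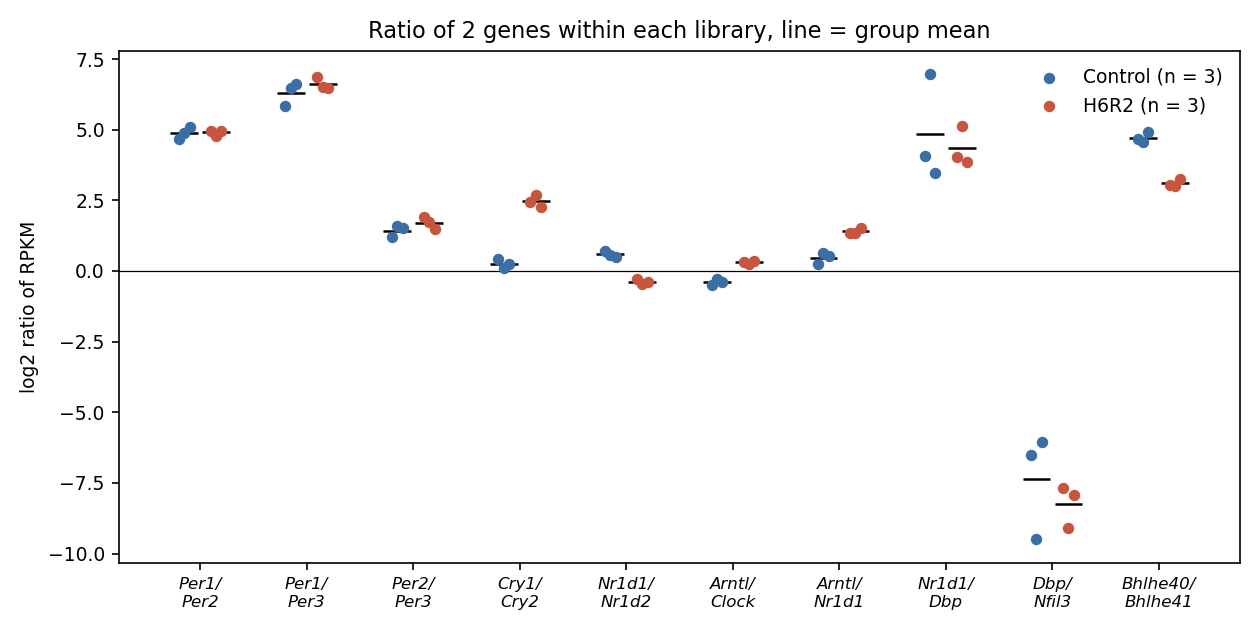
Log2 ratio of the RPKM of 2 genes within each library, for 10 pairs, with 1 point per library (Control blue, H6R2 red) and a line at each group's mean. The groups are apart for *Cry1*/*Cry2*, *Nr1d1*/*Nr1d2*, *Arntl*/*Clock*, *Arntl*/*Nr1d1* and *Bhlhe40*/*Bhlhe41*, and overlap for the 3 *Per* ratios and for both ratios with *Dbp*.

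The nuclear receptor genes *Nr1d1* and *Nr1d2* encode the repressors of *Arntl* and are themselves switched on through E-boxes. Their promoters are shown because 1 carries E-box letters and the other the ROR core, the sequence that the receptors themselves bind. The stretch for *Nr1d1* is chr11:98775378-98775557 (GRCm38.p6, RefSeq, minus strand), positions -180 to -1, with the variant E-box on the opposite strand (AACGTG) at -28 in capitals. That for *Nr1d2* is chr14:18239128-18239286 (minus strand), positions -180 to -22, with the ROR core AGGTCA at -77 in capitals.
Nr1d1: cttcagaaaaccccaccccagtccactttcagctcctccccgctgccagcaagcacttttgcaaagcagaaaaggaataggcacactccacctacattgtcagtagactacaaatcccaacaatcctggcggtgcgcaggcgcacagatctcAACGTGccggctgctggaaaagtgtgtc
Nr1d2: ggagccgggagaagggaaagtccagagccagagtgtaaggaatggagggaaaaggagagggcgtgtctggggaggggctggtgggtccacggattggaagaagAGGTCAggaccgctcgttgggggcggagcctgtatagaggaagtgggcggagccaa
*Nr1d1* (chromosome 11, 98767932 to 98775333, minus strand) had 149, 126 and 127 counts in Control and 128, 117 and 118 in H6R2. Control replicate 1 was the highest, and H6R2 replicate 1 lay above the other 2 Control libraries. The log2 fold change was -0.15 (SE 0.125, interval -0.40 to 0.11, adjusted p = 0.309, edgeR), and -0.07 without Control replicate 1. The overlap depended on the scaling. RPKM of *Nr1d1* was 2.33, 1.99 and 2.06 in Control and 1.88, 1.72 and 1.76 in H6R2, without overlap. With library totals alone the log2 fold change was -0.25 (adjusted p = 0.079, edgeR). On log2(RPKM + 1) it was -0.17 (adjusted p = 0.0511, limma). Its exons share 263 bases, 8.55% of their length, with exons of *Thra* on the opposite strand, which had 428 to 483 counts in Control and 364 to 395 in H6R2. The reads expected from *Thra* were subtracted as if evenly spread and all counted for *Nr1d1* too. The log2 fold change of *Nr1d1* was then -0.16.

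*Nr1d2* (chromosome 14, 18204054 to 18239127, minus strand) had 148, 138 and 145 counts in Control and 256, 259.9 and 249.8 in H6R2. The gap between the groups was far wider than the spread within either. The mean rose 1.78-fold, from 143 ± 5.28 to 255 ± 5.11 (log2 0.83, SE 0.101, interval 0.63 to 1.04, adjusted p = 7.57e-09, edgeR). The log2 ratio of *Nr1d1* to *Nr1d2* RPKM was 0.71, 0.57 and 0.51 in Control and -0.30, -0.46 and -0.38 in H6R2. It was above 0 in every Control library and below 0 in every H6R2 library (exact permutation test, p = 0.10, adjusted 0.20), and *Nr1d1* was 60.2% ± 1.69 of the pair's RPKM in Control and 43.5% ± 1.35 in H6R2. The ratio of *Arntl*, which its product represses, to *Nr1d1* averaged 1.39 in Control and 2.64 in H6R2, without overlap.

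*Dbp* (chromosome 7, 45705088 to 45710203, plus strand), the D-box activator and a classical output of the clock in liver, was barely detected. Its raw counts were 9, 1 and 12 in Control and 7, 3 and 8 in H6R2. These are too few for the test, and with no filter on low counts the log2 fold change was -0.15 with an SE of 0.571 (adjusted p = 0.873, edgeR). A difference in *Dbp* was not detectable at this depth. Its exons also share 539 bases, 18.0% of their length, with exons of *Sphk2* on the opposite strand, which had 131 to 164 counts in Control and 196 to 232 in H6R2. The reads expected there from *Sphk2* alone, 16.98 to 30.07 per library, exceeded the counts of *Dbp* in every library. That estimate takes *Sphk2* reads as evenly spread over its exons and as counted for *Dbp* too. Both cannot have held here.

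*Bhlhe40* (chromosome 6, 108660629 to 108666925, plus strand) encodes DEC1, a repressor that competes for E-boxes and is a known target of hypoxia signalling. It was the most abundant of the 10 genes per length of transcript. Its counts were 1940.2, 1939 and 2023 in Control and 3002, 2857 and 3119.9 in H6R2. The groups were well apart, and the mean rose 1.52-fold, from 1967 ± 48.3 to 2993 ± 132 (log2 0.61, SE 0.0451, interval 0.51 to 0.70, adjusted p = 7.48e-14, edgeR). Its paralog *Bhlhe41*, which encodes DEC2, rose further, from 108 ± 11.1 to 495 ± 28.5 (log2 2.20, adjusted p = 4.70e-20, edgeR). The ratio of *Bhlhe40* to *Bhlhe41* RPKM fell from 26.1 to 8.64, without overlap. Exons of *Bhlhe41* share 1280 bases, 19.0% of their length, with the opposite-strand gene *Gm43909*. That gene had 46 to 62 counts in Control and 321 to 361 in H6R2. After its expected reads were subtracted the log2 fold change of *Bhlhe41* was 1.78 (adjusted p = 3.59e-15, edgeR). The subtraction took reads as evenly spread and counted for both genes, which could not both hold at *Dbp*. Whether they held at *Bhlhe41* was not tested. The shared 1280 bases are also most of the 1876 exon bases of *Gm43909*. Its own counts may therefore hold reads of *Bhlhe41*, which was not tested either. The shorter overlaps of *Cry2* (4.67% of exon length), *Bhlhe40* (2.51%) and *Arntl* (0.439%) with opposite-strand genes moved little: after subtraction their log2 fold changes were -0.76, 0.60 and 0.78.

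Levels between genes were compared by RPKM, which divides by transcript length. In Control the order was *Bhlhe40* (20.5 ± 0.821), *Per1* (10.6 ± 0.254), *Arntl* (2.96 ± 0.195), *Nr1d1* (2.13 ± 0.181), *Cry1* (1.62 ± 0.0808), *Nr1d2* (1.40 ± 0.0555), *Cry2* (1.36 ± 0.129), *Per2* (0.364 ± 0.0472), *Per3* (0.137 ± 0.0379) and *Dbp* (0.114 ± 0.0885), as mean RPKM ± SD of 3 libraries. Neighbours overlapped only for *Nr1d2* with *Cry2* and for *Per3* with *Dbp*. In H6R2 *Cry1* (4.08 ± 0.288) had moved from the fifth to the fourth place, where its range overlapped that of *Arntl* (4.72 ± 0.354), and *Nr1d1* (1.79 ± 0.0861) had dropped from the fourth to the sixth, below *Nr1d2* (2.33 ± 0.0299). *Cry2* (0.741 ± 0.0562) now stood clear of *Nr1d2*. *Bhlhe40* (29.0 ± 1.49) and *Per1* (13.2 ± 0.557) kept the top of the order, and *Per2*, *Per3* and *Dbp* the bottom, with *Per3* and *Dbp* again overlapping.

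The promoter windows searched ran from 250 bases before to 50 bases after each RefSeq start site. There were 10 windows for 8 of the genes, since *Per1* and *Arntl* have 2 each. No window was available for *Per2* and *Bhlhe40*, which were not searched. Both strands were read. The E-box CACGTG was in 2 of the 10 windows (*Per1* and *Cry1*) against 7.15% of 32851 mouse promoter windows, and the variant E-box CACGTT in 3 (*Cry1*, *Cry2* and *Nr1d1*) against 4.68%. The D-box TTATGTAA was in 1 (*Per3*) against 0.938%, and the ROR core AGGTCA in 3 (*Per1*, *Arntl* and *Nr1d2*) against 16.3%. The hypoxia element core ACGTG was in 5 windows (*Per1*, *Cry1*, *Cry2*, *Nr1d1* and *Dbp*) against 19.6%, but its letters lie inside those of the E-box and the variant E-box, and it stood on its own only in *Dbp*, at -227. The CRE core TGACG was in 4 windows, of *Per1*, *Cry1* and *Cry2*, against 20.8%. The full CRE TGACGTCA, in 1.79% of all windows, and the glucocorticoid element core AGAACA, in 19.0%, were in none of the 10. Of the genes with the variant E-box, *Cry1*, which also holds the E-box, rose, *Cry2* fell and *Nr1d1* did not pass. The part of these letters in the differences was not tested. Letters in a window are a description and do not show that a factor binds there.

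**Figure D3:**
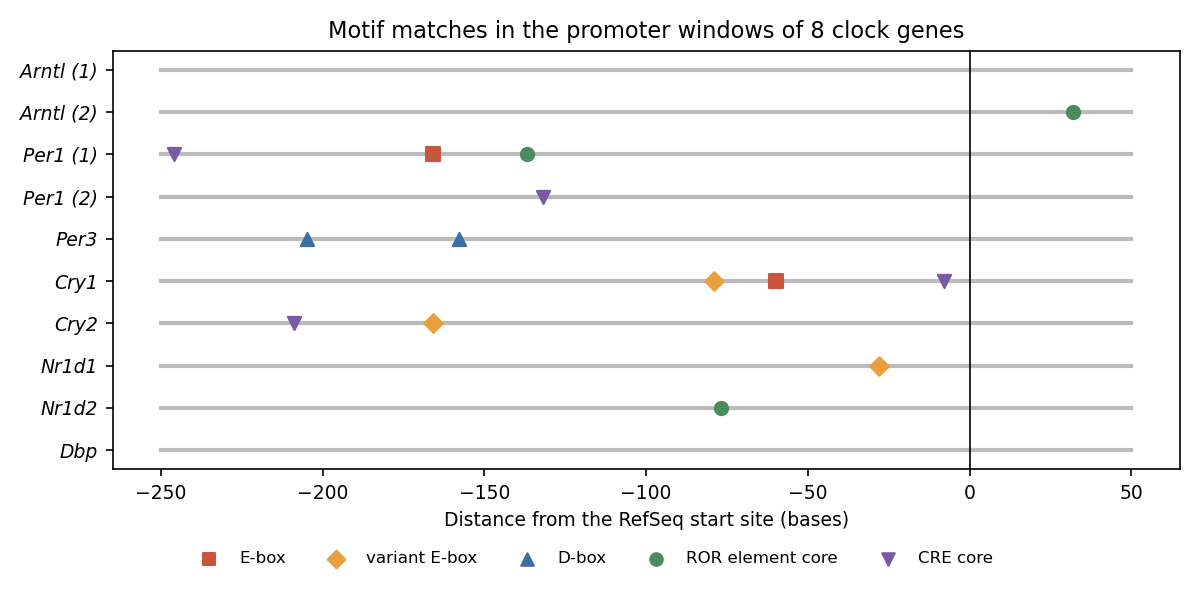
Positions of 5 motifs in the 10 RefSeq promoter windows of 8 clock genes, by distance in bases from the start site (0), with 1 grey line per window. *Cry1* holds the variant E-box at -79 and the E-box at -60, *Per3* holds D-boxes at -205 and -158, and the first *Arntl* window and the *Dbp* window hold none of the 5.

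The rest of the loop was read from a list of 19 further clock genes, of which 17 were listed and 14 tested. *Npas2* and *Hlf* were not in the tables used here, and genes with too few reads for the test included *Arntl2* and *Rora*. At an adjusted p under 0.05, 8 of the 14 were higher in H6R2 and 3 were lower, 78.6% in all against the 62.8% of all tested genes, with a median log2 fold change of 0.38. Past a fold change of 2 as well were 4 of the 14, against 8.52% of all tested genes. Besides *Bhlhe41* these were *Nfil3*, *Ciart* and *Usp2*. *Nfil3*, the D-box repressor that opposes DBP, had 525, 479 and 505 counts in Control and 1058, 1186 and 1302 in H6R2 (log2 1.23, adjusted p = 3.92e-16, edgeR). *Ciart*, a repressor of ARNTL and CLOCK, was rare and went from 9.86 ± 0.509 to 24.1 ± 7.21 (log2 1.28, adjusted p = 0.00139, edgeR). *Usp2*, a deubiquitinase that acts on clock proteins, had 18.0, 24.4 and 36.7 counts in Control and 7.54, 9.71 and 19.99 in H6R2. Its groups overlapped, and its call (log2 -1.06, adjusted p = 0.0093, edgeR) was lost when Control replicate 3, H6R2 replicate 1 or H6R2 replicate 2 was left out, with DESeq2 and with limma, and when the reads expected from opposite-strand genes were subtracted (adjusted p = 0.208, edgeR).

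Among the other genes of that list that passed, 4 that act on the stability of PER proteins rose by less than 2-fold. The kinase genes *Csnk1e* and *Csnk1d*, whose products mark PER for degradation, had log2 fold changes of 0.85 and 0.39. *Btrc* and *Fbxw11*, which encode ligase subunits that target PER, had 0.36 and 0.40, with adjusted p from 1.14e-17 to 6.39e-05 over these 4 genes (edgeR). For *Fbxl21*, an F-box gene that acts on CRY, the log2 fold change was -0.19 (adjusted p = 0.449, edgeR). Of the ROR family, which activates *Arntl*, *Rorb* alone was tested, and it fell from 91.9 ± 7.71 to 51.8 ± 11.4 (log2 -0.82, adjusted p = 0.000108, edgeR). *Timeless*, whose part in the mammalian clock is less settled, fell by 0.50 on the log2 scale (adjusted p = 3.16e-12, edgeR), and *Tef*, a relative of *Dbp*, had -0.23 (adjusted p = 0.203, edgeR).

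**Figure D4:**
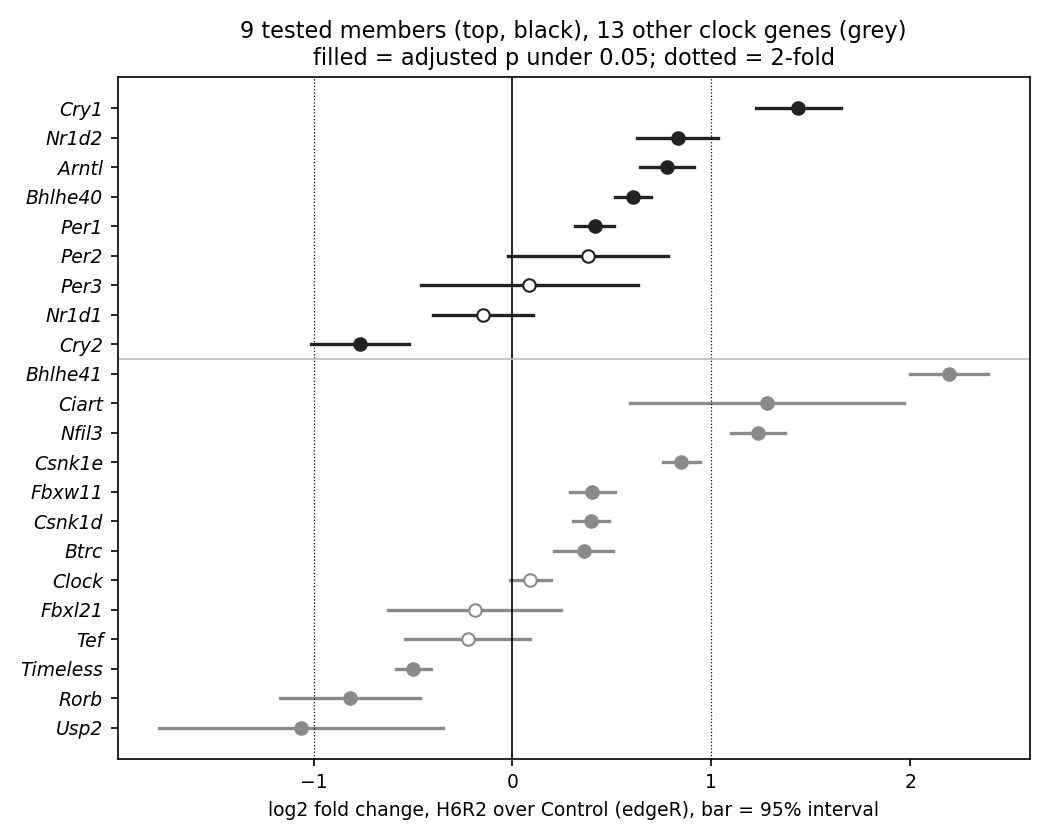
Log2 fold change of H6R2 over Control with its 95% interval for the 9 tested clock genes (black) and 13 further clock genes (grey), filled where the adjusted p was under 0.05, with dotted lines at 2-fold. *Cry1* at 1.44 lies past the line among the 9, and *Bhlhe41* at 2.20 lies furthest out of all.

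Clock output genes of the liver made up a list of 12, of which 7 were tested. Of these, 3 rose and 2 fell at an adjusted p under 0.05 (71.4% against 62.8% of all tested genes), none by 2-fold or more. Among those higher were *Nampt* (the rate-limiting enzyme of NAD salvage, log2 0.61) and *Por* (cytochrome P450 reductase, 0.51). *Lpin1* (a phosphatidate phosphatase, -0.46) and *Alas1* (the first enzyme of heme synthesis, -0.18) were lower. *Wee1* and *Noct* had log2 fold changes of 0.05 and 0.21 and did not pass. *Cyp7a1*, *Upp2* and *Pdk4* had too few reads for the test, and *Gys2* was not in the tables used here; *Ccrn4l*, on the list, is an older symbol of *Noct*.

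The groups differed in serum, glucose and oxygen supply, and may have differed in glucocorticoid and in the insulin supplement. Lists of genes that follow glucocorticoid, serum and stress, and oxygen were read in the same libraries. None was read for glucose or insulin. Of 12 glucocorticoid targets and related genes, 9 were tested, 5 rose and 1 fell (66.7% against 62.8% of all tested genes), with a median log2 fold change of 0.28. The members did not move together: *Errfi1*, *Dusp1* and *Nr3c1*, which encodes the glucocorticoid receptor itself, had log2 fold changes of 1.71, 1.41 and 1.04, *Klf9* had 0.31, and the widely used targets *Fkbp5* and *Tsc22d3* had 0.10 (adjusted p = 0.0551) and 0.08 (adjusted p = 0.148, edgeR). Of 11 immediate-early genes tested, the first to answer serum and stress, 9 rose and 1 fell (90.9% against 62.8% of all tested genes). The median log2 fold change was 1.61. The H6R2 cells had been moved to medium without serum, and the medium of reoxygenation is not given. The parts of serum and of stress in this rise were not tested. *Egr1* went from 17.1 ± 6.46 to 1633 ± 74.6 counts and *Fosb* from 1.93 ± 1.95 to 60.1 ± 9.54. The log2 fold change was 3.56 for *Atf3* and 2.05 for *Fos*. Of 12 hypoxia targets tested, 10 rose, all of them past 2-fold (83.3%, against 31.0% of all tested genes that were higher and 4.25% that were also past 2-fold), and the median log2 fold change was 2.08. The highest were *Adm* (3.78), *Ndrg1* (3.24), *Bnip3* (3.05) and *Slc2a1* (3.01). The part of these inputs in the clock gene values was not tested.

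**Figure D5:**
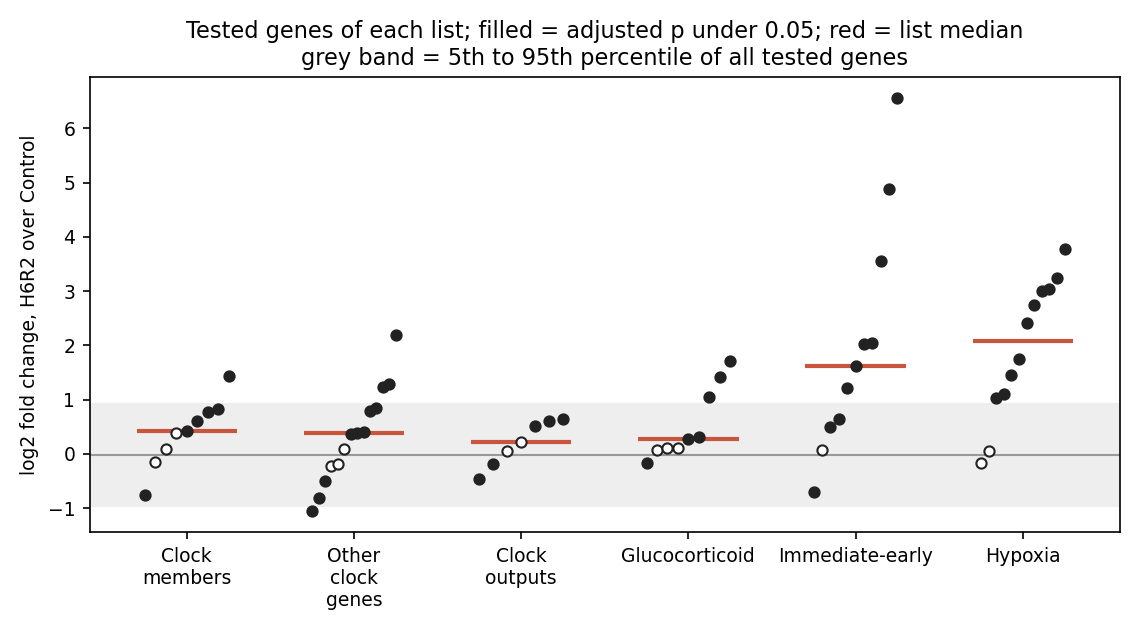
Log2 fold change of H6R2 over Control for each tested gene of 6 lists, filled where the adjusted p was under 0.05, with a red line at the list's median and a grey band from the 5th to the 95th percentile of all tested genes. The medians are 0.41 for the clock genes followed here, 0.38 for other clock genes, 0.21 for clock outputs, 0.28 for glucocorticoid genes, 1.61 for immediate-early genes and 2.08 for hypoxia genes.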

How the data were processed

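RNA was sequenced as paired-end stranded mRNA libraries from 3 Control and 3 H6R2 samples of AML12 cells, grouped by the titles in the labels. The authors mapped reads to the mouse genome GRCm38 and counted them per gene. The submitters' processing notes name Trimmomatic 0.36, featureCounts of Subread 1.5.1 and edgeR 3.12.1. The strand setting of the counting is not given in the sources used here. Whether genes that overlap on opposite strands shared reads is therefore not known. The deposited tables hold raw counts per gene, and the authors' RPKM values, which could be recomputed from count, gene length and library total.

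Counts were fitted in R 4.3.3 with edgeR 4.0.16 (filterByExpr, TMM scaling, glmQLFit with robust dispersions, glmQLFTest) over all 25330 genes, of which 14020 passed the filter, with Benjamini-Hochberg adjustment over those. Thresholds were an adjusted p of 0.05 and a fold change of 2, those of the study. Ratios were log2 ratios of RPKM within a library, compared by exact permutation tests. The fit was tested on simulated data. Promoter windows came from RefSeq (GRCm38.p6). Markers at 3 counts or fewer were treated as at the floor. No library was a duplicate: within groups, chi-square values over genes were 2.19 to 16.2 times their degrees of freedom. Alternatives were DESeq2 1.42.0, other scalings and filters, a replicate block, non-robust dispersions, limma 3.58.1 on log2(RPKM + 1) and log2(RPKM + 0.1), a fold threshold of 1.5, leaving out the clock genes with overlapping exons, leaving out each library and, chosen after seeing the data, subtracting the expected reads of overlapping genes. The genes and lists were chosen with earlier results of these data known. Values of 3 genes on the other clock and output lists are not reported here, though their lists' counts hold them. All 10 clock genes and the remaining genes of these lists could be named, and of each input list at most the 4 with the largest change at an adjusted p under 0.05, with *Fkbp5* and *Tsc22d3* added after their values were seen.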

Additional observations from a re-analysis of the deposited data

How the results depend on the processing

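The 6 clock genes at an adjusted p under 0.05 numbered 6 under every alternative that tested all 9, and *Cry1* was past both thresholds in each but the limma fit on log2(RPKM + 1), where 0 were (406 genes in all against 1195), by construction of the compressed scale. With a fold threshold of 1.5 the clock genes past both numbered 5, the other clock genes 7 and the output genes 2. The other clock genes past both numbered 2 on log2(RPKM + 1) and 2 on log2(RPKM + 0.1), where *Bhlhe41* and *Nfil3* were left; the cause was not tested. Leaving out 1 library gave 0 to 1 output genes past both, the 1 being *Upp2* without Control replicate 3 or H6R2 replicate 3. Without the 4 tested clock genes whose exons overlap another gene, 3 of 5 had an adjusted p under 0.05. The log2 fold change of *Per3* was -0.0176 with library totals alone, -0.00171 on log2(RPKM + 1), -0.00379 on log2(RPKM + 0.1) and -0.0528 to 0.347 when 1 library was left out. Library totals alone lowered the median of all tested genes by 0.10. The log2 fold change ranged from 0.96 to 1.49 for *Cry1* and from -0.87 to -0.44 for *Cry2* over all alternatives.

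With the replicate number as a block, 1 clock gene (*Cry1*, log2 1.44) was past both thresholds, as without it, and 1200 genes were over the whole table. Same-numbered libraries did not deviate together (correlations of their deviations from the group means of -0.0269, 0.00476 and -0.0141). Whether they were cultured or prepared together is not given in the labels, and such correlations cannot settle it.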

Other observations

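The tested genes whose log2 CPM followed that of *Cry1* most closely over the 6 libraries were *Rbpsuh-rs3*, *Mef2d* and *Fosl1*, with Pearson's r of 0.99988, 0.99973 and 0.99967 and log2 fold changes of 1.09, 1.11 and 1.32. With 2 groups of 3 libraries such values mostly measure the step between the groups: 2303 of the 14020 tested genes had an r of at least 0.95 with *Cry1*.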
